A study of Homo sapiens with 6 samples.

Results

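The regions described here are the stretches of the deposited methylation table that flank the large satellite blocks of chromosomes 1, 9 and 16. They were chosen by position alone, as every region that lies inside 115 to 155 Mb of chromosome 1, 35 to 75 Mb of chromosome 9 or 28 to 55 Mb of chromosome 16 (hg38). There were 639 of them among the 35130 regions of the table: 188 on chromosome 1, 164 on chromosome 9 and 287 on chromosome 16. The other 5954 regions of the same 3 chromosomes served for comparison. Methylation was profiled by reduced representation bisulfite sequencing, in which DNA is cut with MspI and converted with bisulfite so that mostly CpG-rich fragments are read. Both groups were M07e, a human acute megakaryoblastic leukemia line grown with GM-CSF: 3 libraries came from cells with a CRISPR knockout of DNMT3B and 3 from control cells labelled WT. The labels do not say whether the knockout is 1 clone, how it was checked, or whether the libraries of a group came from separate cultures.

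DNMT3B is a de novo DNA methyltransferase. Inherited loss of its function causes ICF syndrome (immunodeficiency, centromeric instability and facial anomalies), in which the satellite repeats next to the centromeres of chromosomes 1, 9 and 16 lose methylation and these chromosomes decondense and form branched figures in lymphocytes. The satellite blocks are long arrays of short repeats that are hard to assemble and to align to, and the sequence beside them is rich in segmental duplications, pseudogenes and gene families copied during primate evolution.

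In each window the longest stretch without a region was taken as the place of the block, so by this choice no region lies inside it. The stretch ran for 18.5 Mb on chromosome 1 (125119683 to 143575176), 17.6 Mb on chromosome 9 (42994371 to 60545913) and 10.3 Mb on chromosome 16 (36102427 to 46390494). The longest stretch without an annotated RefSeq gene covered nearly the same span, with 21.7, 17.7 and 10.4 Mb. On chromosome 1 a second stretch of 3.55 Mb without a region lay just below the first, with 4 regions between these stretches. These 4 regions lie inside the gene-free stretch. No annotation of satellite repeats was used here, so whether any region holds satellite sequence was not tested.

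Levels, differences and q-values come from the authors' deposited table, where each region has 1 mean methylation level (%) for either group. Read depth is unknown, as is how far the 3 libraries of a group vary, so no value has a replicate error and no test between libraries was possible. One column is headed WT; the other has a heading found in none of the labels and was read as the knockout, on which every direction rests. A region is called where the authors' q is under 0.01 and the group means differ by at least 25 percentage points. The p-values behind q count points within regions and do not measure the spread between libraries. The derivation of q is not stated in the labels or headers. In the called juxtacentromeric regions q rises in the order of the deposited Kolmogorov-Smirnov p and not of the Mann-Whitney p. All 205 juxtacentromeric regions in which either group mean is exactly 0 have q = 1, whatever their difference, and 172 of them differ by at least 25 points. None of the 10807 such regions of the whole table was called, so in these regions the absence of a call does not speak for equal levels.

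RefSeq promoter sequences (GRCh38.p14) fixed what the table's positions and site numbers stand for. For all 2489 regions that lie wholly inside a promoter window of 300 bases, 55 of them in the juxtacentromeric windows, a CpG cytosine of either strand lay 2 bases above the deposited start and 1 base above the deposited stop. At the positions 1 base lower this held for 51.1% of starts and 58.6% of stops. In 75.8% of these regions the number of sites exceeded the number of CpG dinucleotides, and in none did it exceed the number of CpG cytosines on both strands. A site is therefore a cytosine of 1 strand, a full CpG counts up to 2 sites, and the starts and ends printed here are those of the first and last cytosine.

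Of the 639 regions, 81 overlapped the promoter window of a RefSeq gene (250 bases before to 50 after the start), and 5 of these were called (6.17%, beside 6.74% of all regions). Their promoters are shown because they are the called regions whose sequence the reference holds. TSPAN2 encodes a tetraspanin of myelinating cells, TPM2 encodes beta-tropomyosin and S100A6 a calcium-binding protein. LOC124902161 is a non-coding RNA gene at the end of the phosphoglucomutase pseudogene PGM5P2, and the fifth region touches the promoter window of LINC00273 at 1 base and is described with that gene. Capitals mark the CpG dinucleotides that the called region spans, 5′ to 3′ on the strand of the gene.
TSPAN2, chr1:115089454-115089753, minus strand: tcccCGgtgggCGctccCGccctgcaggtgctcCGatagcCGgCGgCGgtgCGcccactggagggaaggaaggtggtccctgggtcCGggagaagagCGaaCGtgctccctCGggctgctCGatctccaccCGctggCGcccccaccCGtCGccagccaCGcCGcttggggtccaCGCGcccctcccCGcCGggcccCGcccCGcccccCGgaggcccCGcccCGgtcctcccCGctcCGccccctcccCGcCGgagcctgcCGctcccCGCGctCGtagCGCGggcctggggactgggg
S100A6, chr1:153535942-153536241, minus strand: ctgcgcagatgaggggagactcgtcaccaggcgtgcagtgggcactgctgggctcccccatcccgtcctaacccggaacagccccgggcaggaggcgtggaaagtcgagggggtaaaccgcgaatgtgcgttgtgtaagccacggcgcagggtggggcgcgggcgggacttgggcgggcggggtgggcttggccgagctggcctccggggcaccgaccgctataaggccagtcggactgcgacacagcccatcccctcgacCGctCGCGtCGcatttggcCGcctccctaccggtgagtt
TPM2, chr9:35690007-35690306, minus strand: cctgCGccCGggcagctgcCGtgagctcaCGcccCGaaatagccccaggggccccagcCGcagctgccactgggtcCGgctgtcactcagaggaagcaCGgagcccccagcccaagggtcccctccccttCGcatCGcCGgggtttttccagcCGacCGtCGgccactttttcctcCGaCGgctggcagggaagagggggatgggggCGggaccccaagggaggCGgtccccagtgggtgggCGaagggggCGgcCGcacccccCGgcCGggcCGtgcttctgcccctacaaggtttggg
LOC124902161, chr9:41074259-41074558, plus strand: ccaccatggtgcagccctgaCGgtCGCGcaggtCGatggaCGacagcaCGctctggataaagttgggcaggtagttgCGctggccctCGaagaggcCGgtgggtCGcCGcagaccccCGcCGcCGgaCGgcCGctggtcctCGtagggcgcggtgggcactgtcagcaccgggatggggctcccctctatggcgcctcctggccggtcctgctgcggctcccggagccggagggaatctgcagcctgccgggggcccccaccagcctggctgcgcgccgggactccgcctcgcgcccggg
The region spans all 38 CpG dinucleotides of the TSPAN2 window and all 24 of the TPM2 window, but 5 of 31 at S100A6 and 17 of 33 at LOC124902161. The median over all 35116 promoter windows of the reference was 14. The MspI site CCGG occurs 7 times in the TSPAN2 window, 4 times at S100A6, 5 times at TPM2 and 9 times at LOC124902161, and at least once in 63.1% of all promoter windows (the motif reads the same on both strands).

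At these promoters the level was higher in the knockout at TSPAN2, S100A6 and TPM2 and lower at LOC124902161. TSPAN2 had 40.5% in the knockout and 10.6% in the control over 26 sites (q = 0.0068). S100A6 had 45.9% in the knockout and 19.4% in the control over 9 sites (q = 0.00203). TPM2 had 34.0% in the knockout and 1.23% in the control over 27 sites (q = 0.00613). The region before the start of LOC124902161, which overlaps PGM5P2 but not LOC124902161 itself, had 17.4% in the knockout and 62.3% in the control over 21 sites (q = 0.000155). The 81 promoter regions together were mostly unmethylated, with median levels of 3.45% (knockout) and 1.63% (control).

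The share of regions called beside the blocks was close to the share elsewhere, and gains outnumbered losses in both. Of the 639 juxtacentromeric regions 33 were called (5.16%, exact 95% binomial interval 3.58 to 7.18), against 6.60% of the rest of the 3 chromosomes (interval 5.98 to 7.26) and 6.74% of all regions. Of the 33, 24 were higher in the knockout (3.76%, against 4.05% in the rest and 4.57% of all regions) and 9 were lower (1.41%, against 2.55% and 2.17%). The intervals describe regions of the table and not libraries, and neighbouring regions are not independent. Among regions with neither mean at 0, 33 of 434 were called (7.6%), against 9.56% in the rest and 9.74% of all regions. The difference between the windows and the rest was not tested.

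**Figure D1:**
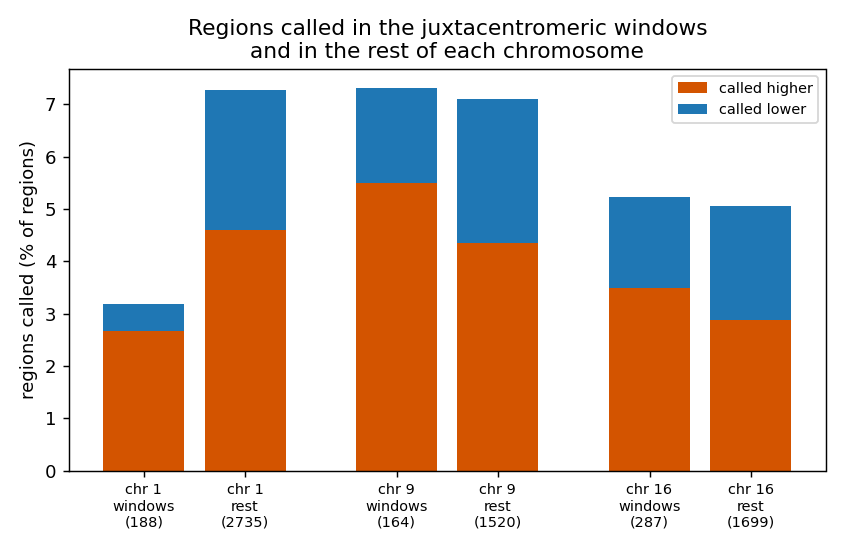
Percent of regions called higher (orange) and lower (blue) in the knockout, in the juxtacentromeric windows and in the rest of each chromosome, with the number of regions in parentheses. The window of chromosome 1 stands at 3.19% against 7.28% in its rest, while chromosomes 9 (7.32% against 7.11%) and 16 (5.23% against 5.06%) stand close to theirs.

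By chromosome, the share called in the window lay below that of the rest on chromosome 1 and close to it on chromosomes 9 and 16. On chromosome 1, 6 of 188 regions were called (3.19%), 5 higher and 1 lower, against 199 of 2735 (7.28%) in the rest of that chromosome. On chromosome 9, 12 of 164 were called (7.32%), 9 higher and 3 lower, against 7.11% in the rest. On chromosome 16, 15 of 287 were called (5.23%), 10 higher and 5 lower, against 5.06% in the rest. Regions were also sparser in the windows, even with the region-free stretch left out: 8.73 per Mb on chromosome 1 against 13.1 in its rest, 7.31 against 15.5 on chromosome 9, and 17.2 against 26.9 on chromosome 16.

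The typical juxtacentromeric region had little methylation in the control and more in the knockout. Knockout levels had a median of 30.1% (quartiles 4.18 and 36.6) and control levels one of 4.62% (quartiles 0 and 28.0), beside 30.8% and 7.46% in the rest of the 3 chromosomes. The difference had a median of 14.5 points (order-statistic 95% interval over regions 6.68 to 18.7), beside 17.2 points in the rest, and it was positive in 436 of 639 regions. In 133 regions (20.8%, against 20.9% in the rest) the control was at exactly 0 while the knockout lay at 25% to 33.3%, all with q = 1. Without these and the 14 mirrored ones, with the knockout at 0, the median difference was 2.75 points. Levels of single libraries were not analysed here, so whether such means rest on 1 library of 3 was not tested.

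**Figure D2:**
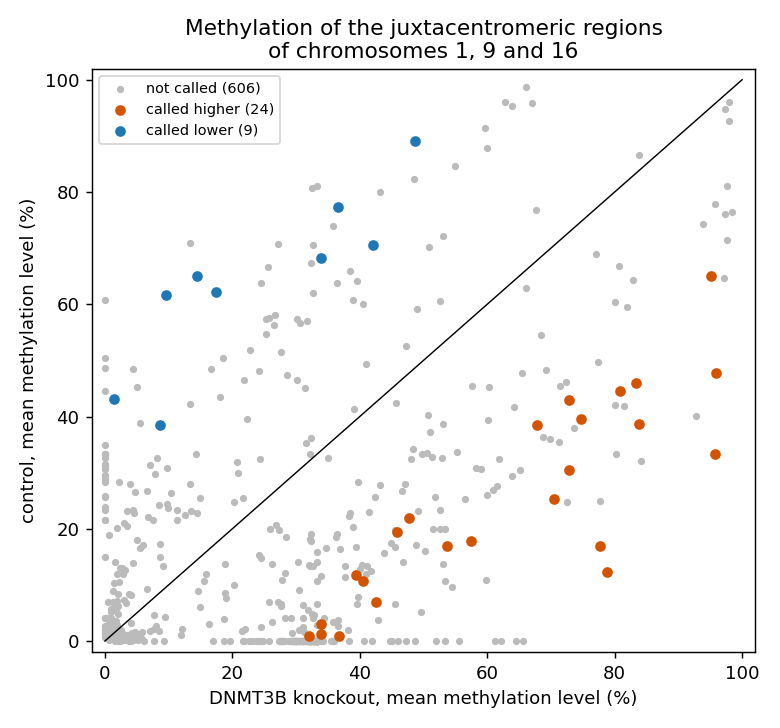
Mean methylation level (%) of each juxtacentromeric region in the knockout (horizontal) and in the control (vertical), with called regions in colour and the line of equal levels. The 24 called higher regions lie right of the line and the 9 called lower ones left of it, and many regions that were not called lie on the horizontal axis near a knockout mean of 30%.

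None of the regions at the very edge of the region-free stretches was called. Several had a control mean of 0, at which no region of the whole table was called. On chromosome 1 the last 2 regions below the stretch, at 125118523 and 125119554, had 33.03% and 33.3% in the knockout and 0% in the control. Above it the first 2, at 143575176 and 143575215, had 47.2% and 35.1% in the knockout and 52.6% and 32.6% in the control. On chromosome 9 the nearest region below, at 42994315 near the pseudogene GXYLT1P5, had 28.3% in the knockout and 12.1% in the control, and the nearest above, at 60545913, had 29.8% and 0%. In 3 of these 6 regions of chromosomes 1 and 9 the control mean was 0, so no loss could appear there.

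On chromosome 16 the nearest region below the stretch, at 36102279 beside LOC101929923, had 24.1% in the knockout and 0% in the control. Above it the first 2, at 46390494 and 46390615, had 36.3% and 57.6% in the knockout and 18.5% and 45.4% in the control (q = 0.798 and 0.783). The next 2, inside the pseudogene ANKRD26P1, had 30.2% and 55.0% in the knockout and 57.3% and 84.7% in the control (q = 0.685 and 0.204). The fifth, also at ANKRD26P1, had 31.1% in the knockout and 0% in the control over 23 sites. On this side the knockout thus lay above the control in 3 of the 5 nearest regions and below it in 2, and none was called. Below the stretch it lay above the control in all 5 nearest, and none of those was called either. Their levels, in order of rising distance, were 24.1%, 29.6%, 31.1%, 71.4% and 42.9% in the knockout. The control had 0%, 0%, 0%, 45.4% and 3.70%. Where the control mean was 0%, on either side of the stretch, no loss could appear.

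Over the 3 chromosomes together, control methylation was higher within 5 Mb of the stretch than farther from it. Within 2 Mb of its edge, the medians of 83 regions were 32.1% (knockout) and 13.3% (control). Between 2 and 5 Mb, 176 regions had 30.8% in the knockout and 13.3% in the control. Between 5 and 10 Mb, 330 regions had 28.4% in the knockout and 2.71% in the control, and beyond 10 Mb 50 regions had 26.7% and 1.08%. Regions under 10% in both groups made up 9.64% within 2 Mb, 12.5%, 30.0% and 28.0% in the order of rising distance.

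On each chromosome the control median was higher within 5 Mb than between 5 and 10 Mb, but it did not fall steadily with distance. On chromosome 1 the control medians were 8.34% within 2 Mb, 17.2% between 2 and 5 Mb, 2.29% between 5 and 10 Mb and 3.67% beyond. On chromosome 9 they were 35.3%, 30.6%, 3.48% and 0.432%, and on chromosome 16, which has no region beyond 10 Mb, 9.97%, 9.70% and 2.69%.

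A like order of the pooled medians was found for the remaining regions when those with a mean of 0 in 1 group and 25% to 33.3% in the other were left out, except in the last step of the control. The medians were then 34.2% in the knockout and 26.7% in the control within 2 Mb, 30.1% and 20.9% between 2 and 5 Mb, 17.8% and 7.09% between 5 and 10 Mb, and 5.22% and 8.98% beyond. On chromosome 1 alone the control median was then 11.6% within 2 Mb, against 21.5% between 2 and 5 Mb and 11.9% between 5 and 10 Mb. The kind of sequence moved with distance as well: the assigned gene was protein-coding for 15.7% of the regions within 2 Mb, 43.2% between 2 and 5 Mb, 83.6% between 5 and 10 Mb and 82.0% beyond. Its part in the levels was not tested. In order of rising distance, 5 of 83 (6.02%), 11 of 176 (6.25%), 15 of 330 (4.55%) and 2 of 50 (4.0%) were called. The called regions are few, and a change of their share with distance was not tested.

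**Figure D3:**
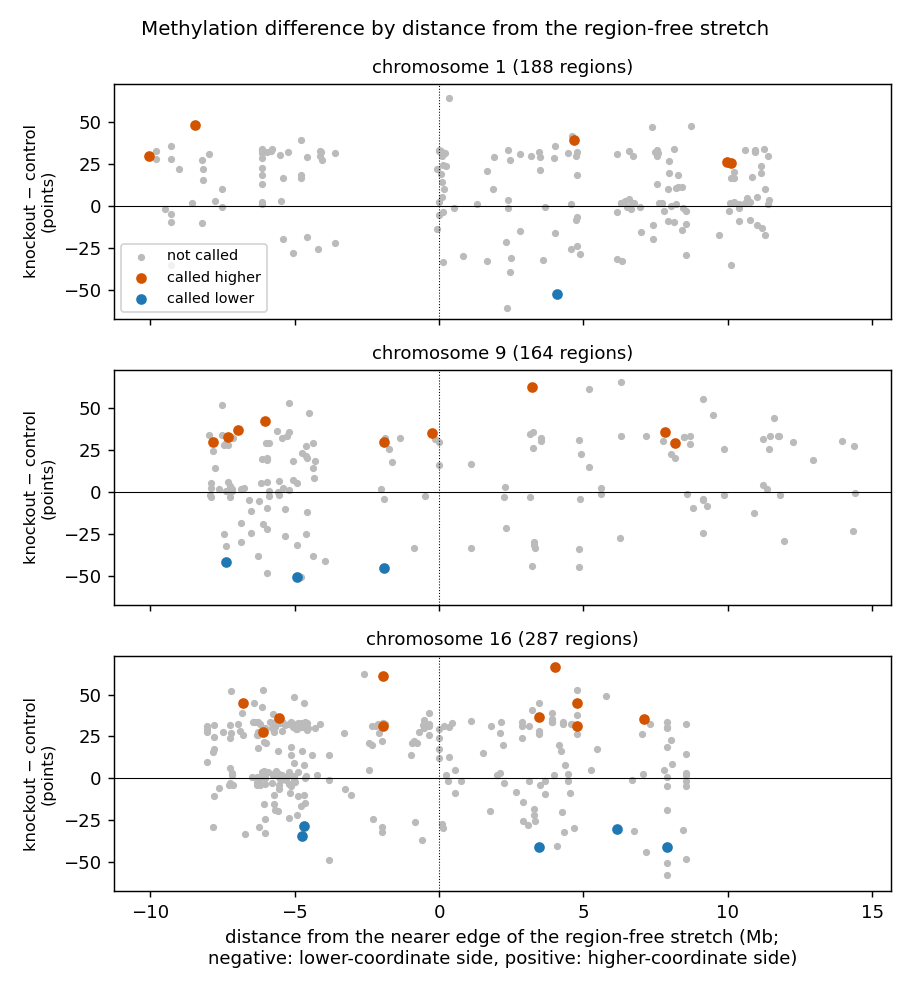
Difference in methylation (knockout minus control, percentage points) of each region against its distance from the nearer edge of the region-free stretch (Mb), for each chromosome, with called regions in colour. Called regions of both directions are spread along the windows, and within 2 Mb 4 are higher and 1 is lower, on chromosomes 9 and 16.

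The 5 called regions within 2 Mb lay at pseudogenes and non-coding RNA genes of chromosomes 9 and 16. None of the 26 regions of chromosome 1 at that distance was called, beside 6.74% of all regions. In 8 of these 26 the control mean was 0 and in 2 the knockout mean, and no region with such a mean was called. A difference between the chromosomes was not tested. The called regions at PGM5P2, LOC124902161 and LINC00273 lay 1.92 to 1.95 Mb from the stretch, close to the bound of 2 Mb. Measured from the gene-free stretch instead, 3 of 96 regions within 2 Mb were called (3.1%, beside 6.74% of all regions), all higher. At the end of PGM5P2, 3 regions within 1 kb differed in direction. The first, shown in part in the LOC124902161 sequence, fell to 17.4% in the knockout, against 62.3% in the control (41074148 to 41074401). The second, beginning 6 bases above it, had 31.5% and 35.3% (q = 1), and the third, inside LOC124902161, had 72.8% in the knockout and 42.9% in the control over 17 sites (41074812 to 41074898, q = 0.000254). The called loss and the called gain were thus 411 bases apart. PGM5, the source gene of the pseudogene family, encodes a phosphoglucomutase-like protein of cell junctions and lies on the other side of the stretch, where a region of 19 sites at one end of it had 80.8% in the knockout and 44.6% in the control (68356678 to 68356764, q = 0.00122).

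Near CNTNAP3P7, a pseudogene of the contactin-associated protein family, a region of 5 sites 0.251 Mb from the stretch had 74.7% in the knockout and 39.6% in the control (42743707 to 42743715, q = 0.000739). It was the called region closest to any stretch. At LINC00273, a non-coding RNA gene of chromosome 16, 13 sites 5124 bases outside the gene had 77.7% in the knockout and 16.9% in the control (34153367 to 34153461, q = 2.57e-06). A second region of 31 sites inside it had 32.0% in the knockout and 0.860% in the control (34159513 to 34159924, q = 0.00389). Both were higher in the knockout. PGM5P2, PGM5 and CNTNAP3P7 belong to families with near-identical copies. No label or header says how reads from such copies were placed, so the values at these genes are uncertain. Whether the sequence at LINC00273 has copies elsewhere was not tested, so the values there may be uncertain in the same way.

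Families copied in this neighbourhood were listed by symbol, among them NBPF, NOTCH2NL, SRGAP2, FOXD4L, CNTNAP3, ANKRD20A, SPATA31, PGM5 and NPIPB. Of 111 such genes inside the windows 17 had a region (PGM5 and its antisense gene share 1), 21 regions in all. Of these 21, 3 were called (14.3%, beside 6.74% of all regions), 2 higher and 1 lower (those at PGM5P2, CNTNAP3P7 and PGM5). The remainder did not pass, for example TP53TG3HP with 43.1% in the knockout and 80% in the control (q = 0.0235), FOXD4L4 with 60.3% and 45.2% (q = 0.18) and SULT1A1, a phenol sulfotransferase gene, with 58.2% and 30.8% (q = 0.0765). NBPF11 and SRGAP2B, copies of a neuroblastoma breakpoint gene and of a GTPase activator of neurons, were unmethylated in both groups, with 2.03% and 2.25% in the knockout and 0.734% and 0.715% in the control.

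The 9 called losses lay on all 3 chromosomes and, apart from the one at PGM5P2, 3.47 to 7.90 Mb from the stretch. The largest was at ACP6, a mitochondrial lysophosphatidic acid phosphatase gene, where 7 sites had 9.52% in the knockout and 61.6% in the control (chromosome 1, 147670220 to 147670298, q = 0.0029). Inside SHB, an adaptor protein gene, 5 sites had 14.5% in the knockout and 65.0% in the control (chromosome 9, 38067263 to 38067267, q = 0.000685). At TESK1, a kinase gene of actin regulation, 5 sites had 1.42% in the knockout and 43.2% in the control (chromosome 9, 35605963 to 35605988, q = 0.00158). These 3 regions stood between 43.2% and 65.0% in the control and at 14.5% or less in the knockout.

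Other losses were on chromosome 16. Inside ITGAX, which encodes the myeloid integrin CD11c, 5 sites had 33.9% in the knockout and 68.2% in the control (q = 0.000305). ZNF843, a zinc finger gene, had 42.0% in the knockout and 70.5% in the control over 7 sites (q = 0.00292). TOX3, an HMG-box factor gene, had the called loss with the most sites, 36 near its end, with 8.61% in the knockout and 38.5% in the control (52546970 to 52547137, q = 0.000771). The losses at IRX3 and ZNF423 are given with their loci.

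The largest gain was 3997 bases from LOC124903770, a non-coding RNA gene between ZNF423 and SALL1, with 78.8% in the knockout and 12.2% in the control over 6 sites (chromosome 16, 50403617 to 50403649, q = 0.000288). A region beside the pseudogene LOC107987021 had 95.8% in the knockout and 33.3% in the control over 5 sites (chromosome 9, 63781453 to 63781478, q = 0.00642). At IGSF3, an immunoglobulin superfamily gene, 5 sites had 95.8% in the knockout and 47.7% in the control (chromosome 1, 116667325 to 116667381, q = 1.07e-06). All 3 regions are short, with 5 or 6 sites.

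Further gains among the 10 with the largest difference were at genes of other kinds. SNX29P2, a sorting nexin pseudogene, had 70.4% in the knockout and 25.3% in the control over 13 sites (q = 0.00526). A region 200 bases from TRQ-CTG4-1, a glutamine tRNA gene of 1q21, had 57.4% in the knockout and 17.8% in the control over 8 sites (q = 0.000952). RECK, which encodes a membrane-anchored inhibitor of metalloproteinases, had 83.3% in the knockout and 46.0% in the control over 8 sites (q = 0.00931). Of the 24 gains, 3 (at LINC00273, TPM2 and SALL1) had a control mean under 5% and a knockout mean within 3 points of 33.3%, where means of the table pile up.

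**Figure D4:**
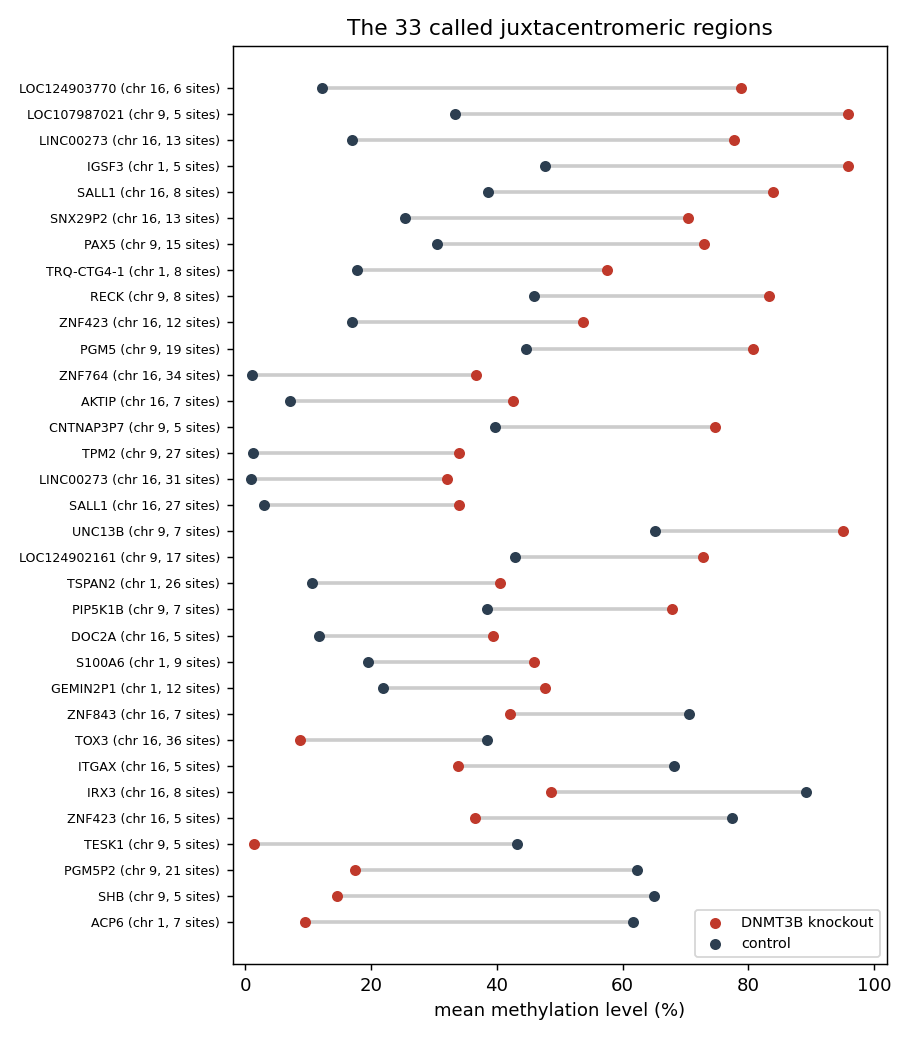
Mean methylation level (%) in the knockout (red) and in the control (dark) of the 33 called juxtacentromeric regions, ordered from the largest gain at the top to the largest loss at the bottom and named by the assigned gene. The 24 gains run from 25.8 to 66.6 points and the 9 losses from 28.5 to 52.0 points.

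Developmental transcription factors held 7 of the 33 called regions. Of 12 listed genes in the windows, 10 had a region, 53 regions in all; 7 were called (13.2%, beside 6.74% of all regions), 4 higher and 3 lower, at 5 genes. SALL1, a zinc finger factor of kidney and limb development, had 5 regions, and all 5 were higher in the knockout. Their levels were 80%, 83.9%, 34.0%, 77.7% and 45.6% in the knockout and 42.1%, 38.6%, 2.96%, 25% and 19.2% in the control, in order of rising coordinate. The second (51150846 to 51150876, 8 sites, q = 0.000303) and the third (51151387 to 51151654, 27 sites, q = 0.00606) were called.

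IRX3, a homeobox gene of patterning, had 10 regions of both directions. The one farthest outside the gene, by 4733 bases, had 48.6% in the knockout and 89.2% in the control over 8 sites (54291520 to 54291546, q = 0.00109) and was called lower. Regions at 54286124 and 54290526 had 14.5% and 13.3% in the knockout and 64.8% and 71.0% in the control, without passing (q = 0.0242 and 0.0235). Between these, the region at 54289713 had 36.6% in the knockout and 2.67% in the control (q = 0.0237). Levels in the control thus ranged from 0% to 89.2% over 7 kb of this locus.

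ZNF423, a zinc finger factor of neural and fat cell development, had 12 regions and a called pair of opposite direction 1824 bases apart. One had 53.7% in the knockout and 16.9% in the control over 12 sites (49854775 to 49854978, q = 0.00425), and the other had 36.5% in the knockout and 77.4% in the control over 5 sites (49856802 to 49856810, q = 3.24e-06). The next, 1436 bases farther on, had 59.0% in the knockout and 30.7% in the control and was not called (q = 0.0508). The loss thus lay between regions that were higher in the knockout.

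PAX5, the B-cell identity factor, had 10 regions and 1 call. Inside the gene 15 sites had 72.9% in the knockout and 30.4% in the control (chromosome 9, 36986299 to 36986388, q = 0.00187). Another region inside the gene had 32.4% in the knockout and 80.7% in the control (37026970 to 37027007) but did not pass (q = 0.0245). TBX15, a T-box factor of skeletal development, had 8 regions and no call, the lowest q being 0.203.

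**Figure D5:**
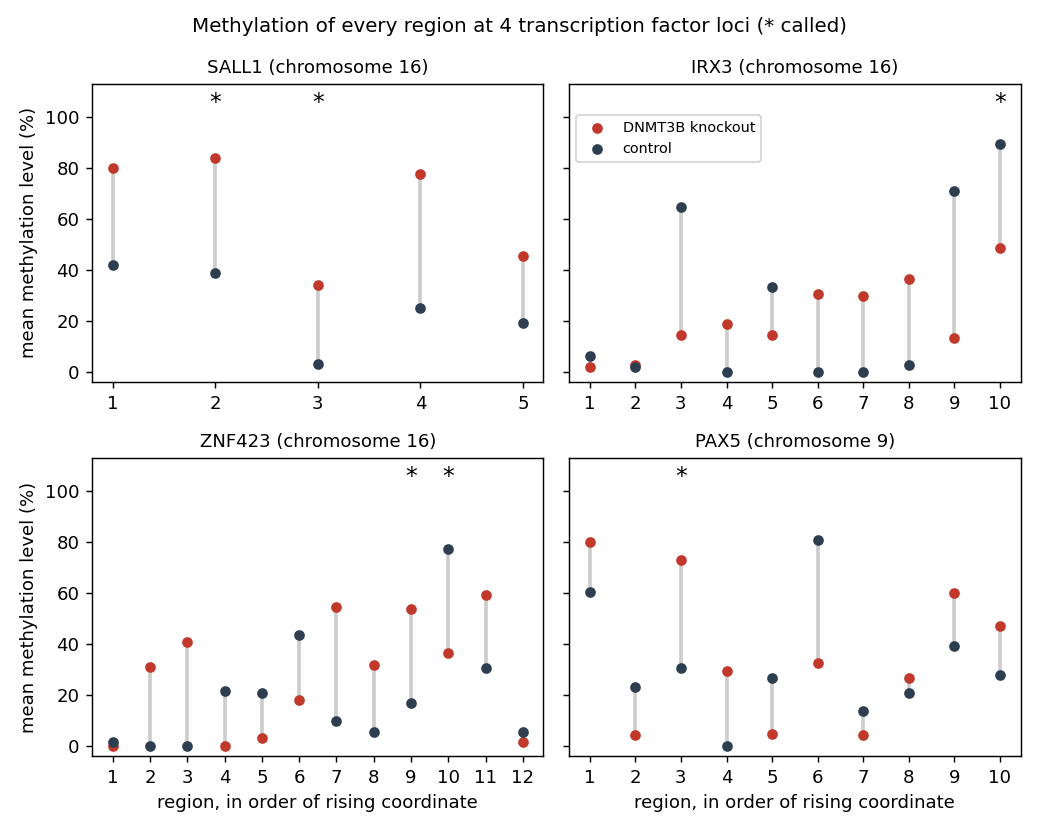
Mean methylation level (%) in the knockout (red) and in the control (dark) of every region at SALL1, IRX3, ZNF423 and PAX5, in order of rising coordinate, with an asterisk over called regions. At SALL1 the knockout is higher in all 5 regions, while the other 3 loci hold regions of both directions.

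Genes with ZNF symbols had 45 regions at 16 of 21 genes, of which 4 were called (8.89%, beside 6.74% of all regions), 2 higher and 2 lower. Beside ZNF423 and ZNF843 this was ZNF764, with 36.7% in the knockout and 0.980% in the control over 34 sites (30555539 to 30555999, q = 0.000252). Blood and immune cell genes had 34 regions at 17 of 35 genes and 2 calls (5.88%, beside the same 6.74%), PAX5 (higher) and ITGAX (lower). BCL9, a cofactor gene of Wnt signalling, had 10.4% in the knockout and 26.4% in the control and was not called (q = 0.0251). NOTCH2, a receptor gene with a region 5.05 Mb from the stretch of chromosome 1, had 60.0% in the knockout and 87.9% in the control (q = 0.0428) and was not called.

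Neuronal genes had 34 regions at 14 of 14 genes and 4 calls, all higher: IGSF3, TSPAN2, UNC13B and DOC2A. This was 11.8% called higher, beside 6.74% called and 4.57% called higher of all regions. The list includes TSPAN2 of myelinating cells and was chosen with earlier results of these data known. UNC13B, a synaptic vesicle priming gene, had 95.05% in the knockout and 65.1% in the control over 7 sites (q = 0.00164). DOC2A, a calcium sensor gene of transmitter release, had 39.4% in the knockout and 11.8% in the control over 5 sites (q = 0.00351). KCNN3, a potassium channel gene of the list, had 3.45% in the knockout and 20.4% in the control and was not called (q = 0.0124).

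Genes of the epidermal differentiation complex and S100 genes form a cluster of skin barrier and calcium-binding protein genes at 1q21. They had few regions: 7 of 68 genes, with 11 regions and 1 call (9.09%, beside 6.74% of all regions), that at S100A6. S100A10 had 7.48% in the knockout and 21.6% in the control (q = 0.00122), short of 25 points, and FLG, the filaggrin gene, 72.5% and 24.8% (q = 0.0126). None of 18 regions at 9 of 16 chromatin regulators was called. CHD1L, a remodeller gene, had 59.6% in the knockout and 91.4% in the control (q = 0.0419), and SETDB1, a histone methyltransferase gene, 80.2% and 33.3% (q = 0.0727). The 1q21 histone genes had 2 regions at 2 of 13 genes, with 3.08% in the knockout and 1.01% in the control at H2AC20 and 2.25% and 0.575% at H2BC21. At list sizes of 2 to 53 regions these shares were not tested against the 6.74% of all regions.

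What the windows held also differed from the rest in annotation. Regions within 1000 bases of a gene end made up 52.7% of the juxtacentromeric regions (exact 95% interval 48.8 to 56.7) and 39.6% of the rest. Their assigned gene was protein-coding for 63.5% against 80.3%. Among regions at gene ends 5.34% were called in the windows and 8.37% in the rest, inside genes 5.34% and 5.20%, and between genes 4.17% and 6.29%. Regions had a median of 6 sites in both. They had 20 or more sites in 33 of 639, of which 7 were called (21.2%), against 37.1% of such regions in the rest. The control mean was 0 in 17 of these 33 (51.5%) and in 36.1% of such regions in the rest. At gene ends it was 0 in 23.1% of regions in the windows and in 16.5% in the rest. No region with a control mean of 0 was called, which limits these comparisons.

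The region with the most sites on each chromosome had a control mean of 0 and was not called. These lay within SEMA6C on chromosome 1 (29 sites, 33.1% in the knockout and 0% in the control), at RUSC2 on chromosome 9 (53 sites, 34.0% and 0%) and within SBK1 on chromosome 16 (46 sites, 32.1% and 0%), each with q = 1. Their unadjusted Mann-Whitney p-values in the authors' deposited table were 0.000146 at SEMA6C, 1.06e-08 at RUSC2 and 1.69e-06 at SBK1. At the window bounds, the regions just inside were at TSPAN2 (given above) and FLAD1 (3.76% in the knockout and 0% in the control) on chromosome 1, SPATA31G1 (50.2% and 16%) and C9orf40 (0.0607% and 0.66%) on chromosome 9, and GSG1L (29.2% and 0%) and LOC124903692 (33.3% and 81.1%) on chromosome 16. Those just outside were at DENND2C (20.2% and 25.3%) and ZBTB7B (32.0% and 13.2%), DNAJB5 (29.4% and 0%) and CARNMT1 (0% and 0.952%), and KATNIP (33.3% and 0%) and LOC105371278 (2.33% and 1.56%), in the same order. No region crossed a bound.

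Under other rules on the size of the difference or on q, the share called in the windows also stood below that of all regions. With 10 points in place of 25, 43 regions were called (6.73%, against 8.60% of all regions), 28 higher (4.38%, against 5.33%) and 15 lower (2.35%, against 3.27%). With 40 points there were 13 (2.03%, against 3.42%), 7 higher (1.10%, against 2.33%) and 6 lower (0.939%, against 1.09%). At q under 0.05 there were 64 (10.02%, against 10.5%), 43 higher (6.73%, against 7.05%) and 21 lower (3.29%, against 3.41%). Gains outnumbered losses under each of these rules. At q under 0.001 there were 14 (2.19%, against 3.31%), 9 higher (1.41%, against 2.26%) and 5 lower (0.782%, against 1.04%). With the Benjamini-Hochberg adjusted Kolmogorov-Smirnov p of the table in place of q there were 19 (2.97%, against 4.12%). Of these, 12 were higher (1.88%, against 2.79%) and 7 lower (1.10%, against 1.32%). In the called regions q rises in the order of this p, so this rule is a stricter cut and not a separate check. The adjusted Mann-Whitney p turned the order: 59 were called (9.23%, against 8.70% of all regions), 44 higher (6.89%, against 6.38%) and 15 lower (2.35%, against 2.31%). Of these 59, 21 have a group mean of 0. TP53TG3HP and NOTCH2 are among those called at q under 0.05.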

How the data were processed

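The authors' deposited table of 35130 regions was used, 1 row per region on hg38. Per the file headers it gives the mean methylation level of each group in percent, their difference, the count of CpG sites, a Mann-Whitney p-value, a 2-dimensional Kolmogorov-Smirnov p-value and a q-value. FastQC, Trimmomatic, Bismark, HISAT2 and methylKit stand in the submitters' processing notes, without roles or versions, and no source says which program made the regions. Depth is unknown. The windows were applied to the deposited starts and stops. No test between libraries was run, because the table holds no library values; counts, medians and shares are descriptions (Python 3.11.15, pandas 2.3.3, scipy 1.17.1). Calling and window membership were tested on simulated data. Genes are RefSeq genes (GRCh38.p14) that a region overlaps, otherwise the nearest within 50000 bases; strand and exons are not in that table. The rule named the 10 largest called losses and gains, the regions nearest to the stretch, those with the most sites, those at the bounds and up to 3 genes per list by q; other genes, among them TP53TG3HP, NBPF11, SRGAP2B, TBX15, NOTCH2, KCNN3 and TPM2, were chosen after their values were seen, and some genes that the rule names are not reported here. The windows and gene lists were chosen with earlier results of these data known.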

Additional observations from a re-analysis of the deposited data

How the results depend on the processing

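The table has 1 mean per group, so no replicate could be left out and the depth that limits each mean is unknown. No paired analysis was possible because the table holds no library values. The main counts were 33 called, 24 higher and 9 lower. They moved to 64 (43 and 21) at q under 0.05, 14 (9 and 5) at q under 0.001, 13 (7 higher) at 40 points, 15 lower at 10 points, 19 (12 higher) with Benjamini-Hochberg adjustment of the Kolmogorov-Smirnov p, and 59 (44 and 15) with that of the Mann-Whitney p. Among these rules only the Mann-Whitney one put the share called in the windows above that of all regions (9.23% against 8.70%). It is also the only rule that rests neither on q nor on the Kolmogorov-Smirnov p, whose order q follows in the called regions. With 10 or more sites 14 of 132 were called (10.6%), 12 higher and 2 lower. At 10 to 19 sites 7.07% were called in the windows and 12.7% in the rest of the 3 chromosomes. At 20 or more sites these shares were 21.2% and 37.1%. With windows trimmed by 5 Mb 12 of 212 were called (5.66%, beside 6.74% of all regions), 9 higher and 3 lower. Trimmed by 10 Mb, 1 of 39 was called (2.56%), higher in the knockout. Without chromosome 9 there were 21 of 475 (4.42%, 15 higher) and without chromosome 16 18 of 352 (5.11%, 14 and 4), by construction. The other counts, among them those after merging called regions within 1000 bases, stayed within 1.5 times the main ones.

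The median difference of 14.5 points was 27.9 with 10 or more sites, 19.6 with windows trimmed by 5 Mb, 21.7 with regions weighted by sites and 2.75 without means of 0 in 1 group and 25% to 33.3% in the other. The share near gene ends was 38.5% at 500 bases and 65.6% at 2000 bases, against 28.6% and 49.9% in the rest. Within 2 Mb of the stretch, the median difference of 21.3 points ranged from 14.8 to 22.5 over the 5 alternatives, 4 of them chosen after seeing the data.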

Other observations

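Regions methylated in both groups were few beside the blocks. With at least 75% in both groups there were 8 of 639 (1.25%, against 1.09% in the rest of the 3 chromosomes), among them a region 41506 bases from FAM242D, beside the block of chromosome 9, with 97.6% in the knockout and 81.0% in the control, and TBX15 with 97.3% and 94.7%. Over the 17 regions whose mean of both groups was at least 75% the median was 95.7% in the knockout and 86.7% in the control, beside 94.4% and 78.5% over 132 such regions in the rest. Of these 17, 1 was called, higher in the knockout, and of the 132 in the rest 5 were called higher and 1 lower.

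A further 11 regions had an authors' q under 0.01 but differed by less than 25 points, so they were not called. One of them was the S100A10 region given above. Conversely, 285 regions differed by at least 25 points without a q under 0.01, of which 172 have a group mean of 0 and q = 1. Among these was H3-7, a histone gene beside the block of chromosome 1, with 64.4% in the knockout and 0% in the control over 6 sites (q = 1). The H3-7 region was chosen after its values were seen.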
